A study of Nothobranchius furzeri with 15 samples.

Results

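Skin of male turquoise killifish (Nothobranchius furzeri) given 150 pM rotenone was compared with skin of males given the solvent dimethyl sulfoxide (DMSO). Each group held 5 samples, chosen by their treatment label, so that 10 of the 15 RNA-seq samples of the series were used, and the 5 samples of fish given 15 pM rotenone were kept out of the fit. All fish were 9 weeks old and of GRZ, an inbred laboratory strain of this annual species. The labels record neither the route and duration of the treatment nor whether animals were pooled, and they do not state outright that the samples are separate fish. All p-values therefore refer to the variation among these samples, part of which may be technical. Replicates are numbered 1 to 5 within a group in the order of their registration, and these numbers pair no samples.

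Rotenone blocks the transfer of electrons from NADH to ubiquinone in complex I, the entry enzyme of the mitochondrial respiratory chain. Less electron flow through this enzyme lowers the proton gradient that drives ATP synthesis, raises the ratio of NADH to NAD+ and, depending on the dose, changes the release of reactive oxygen species, which cells read out through nuclear gene expression. Fish skin is a living epithelium of keratinocytes and mucous cells over a collagen-rich dermis with scales, pigment cells, vessels, nerves and immune cells, and a whole-tissue sample can carry some of the muscle below it. The deposited tables give genes by numbered identifiers without names. None could be paired with a name here, since 0 of the 26739 identifiers occur in the table of RefSeq genes. Subunits of complex I, markers of skin cell types and pathways were therefore not analysed here, the label skin was not checked against markers, and the genes are described by their level, length, direction and behaviour over samples.

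The 10 libraries had between 23983152 and 28314659 counts, on average 25978514 ± 1577773 for DMSO and 25180299 ± 1788767 at 150 pM (SD, n = 5). In each sample 20897 to 21505 genes had at least 1 count. The 20 genes with the most counts held 24.8% to 33.4% of a DMSO library and 25.03% to 31.97% of a 150 pM library. By exact two-sided permutation tests of the group means the groups did not differ past the threshold in total count (p = 0.468), in the number of genes detected (p = 0.944) or in this share (p = 0.373), and with the share of short genes reported further on these were 4 tests, with adjusted p of 0.624, 0.944 and 0.624.

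None of the first 3 principal components of the log2 CPM values (CPM is the read count of a gene brought to the same library size by TMM scaling; 0.5 was added before the log) separated the treatments completely. PC1 held 31.8% of the variance and set DMSO replicate 3 (score 68.8) and 150 pM replicate 2 (score 48.9) apart from the other 8 samples, whose scores were -31.6 to 8.23. PC2 held 24.7% and set DMSO replicate 5 apart, with a score of 73.4 against -33.5 to 15.5 in the others. On this component 150 pM replicates 2 to 5, at -33.5 to -17.2, lay below all DMSO samples, the lowest of which had -9.04, and 150 pM replicate 1, at 15.5, lay within the DMSO range. These 3 libraries also lay farthest from the mean of the other samples of their group, at root mean square distances of 0.675, 0.613 and 0.652 in log2 CPM. The other 7 samples had distances of 0.335 to 0.505. On PC3, with 15.3% of the variance, DMSO replicates 1 to 4 had scores of 7.58 to 35.5 and all 150 pM samples had scores of -25.8 to -2.56. DMSO replicate 5, at -16.5, fell among the 150 pM samples. The correlation of log2 CPM across genes was 0.922 to 0.986 between 2 DMSO samples, 0.931 to 0.983 between 2 samples at 150 pM and 0.918 to 0.983 between a DMSO and a 150 pM sample.

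**Figure D1:**
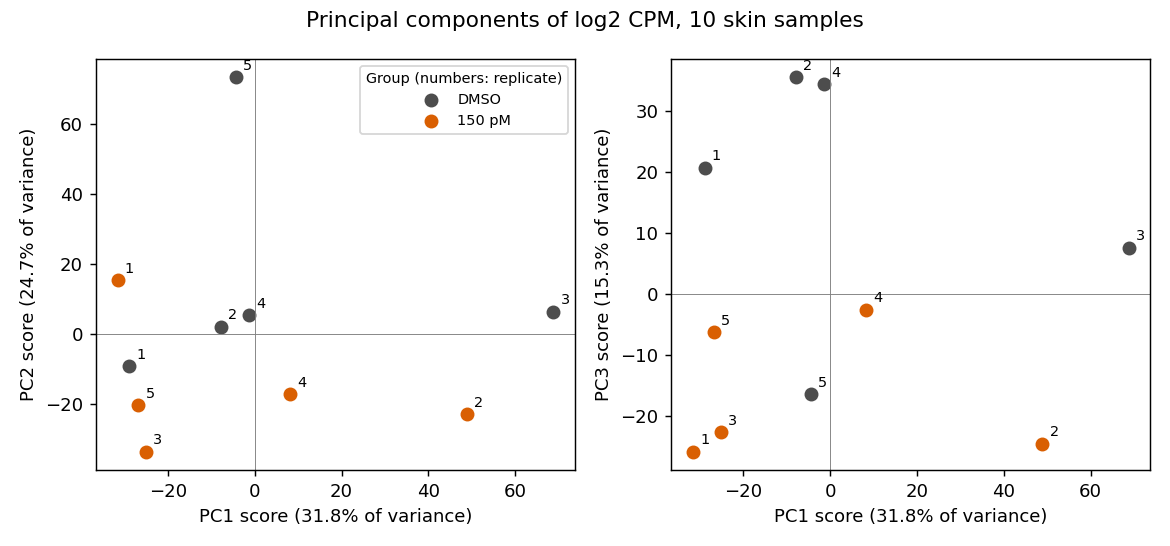
Scores of the 5 DMSO samples (grey) and the 5 samples at 150 pM (orange) on PC1 against PC2 (left) and on PC1 against PC3 (right), in log2 CPM units, with replicate numbers beside the points. DMSO replicate 3 and 150 pM replicate 2 lie far out on PC1 and DMSO replicate 5 on PC2, and the groups are apart on PC2 except for 150 pM replicate 1 and on PC3 except for DMSO replicate 5.

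At 150 pM, 508 of 17812 tested genes differed from DMSO with a Benjamini-Hochberg adjusted p under 0.05 in edgeR's quasi-likelihood test. This was 2.85% of the genes tested. Of them, 279 genes (1.57%) were raised and 229 genes (1.29%) were lowered. On the log2 scale the typical rise was 0.57, with quartiles of 0.45 and 0.81, and the typical fall was -0.65, with quartiles of -0.94 and -0.48 (medians over the called genes). The median over all tested genes was 0.00. In whole skin, fewer cells of a type and less RNA per cell cannot be told apart.

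Changes were mostly modest, and large ones were more often decreases. Among the raised genes 29 (10.4%) had a log2 fold change over 1, against 52 (22.7%) of the lowered genes under -1. Over 2 there were 2 raised and 8 lowered genes. The samples of the groups overlapped in both of these raised genes, whereas 6 of these 8 lowered genes had no overlap. The smallest changes that were called were 0.28 upward and -0.29 downward.

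The calls stood close to the threshold. Only 8 genes had an adjusted p under 0.01 by the same test, all 8 of them raised, while 1940 genes had one under 0.1, 974 of them higher and 966 lower. The smallest adjusted p was 0.00638. Before adjustment, 4530 genes had a p under 0.05, 25.4% of those tested, 2304 of them higher and 2226 lower at 150 pM.

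In 472 of the 508 called genes, 256 raised and 216 lowered, no sample of 1 group lay within the range of the other. Among all tested genes the groups did not overlap for 1475 genes, which is 8.28%, with 672 of them higher and 803 lower at 150 pM. In 36 called genes at least 1 sample lay within the range of the other group. The called genes were chosen by the difference between these same samples, so their separation follows largely from the choice and does not add support.

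**Figure D2:**
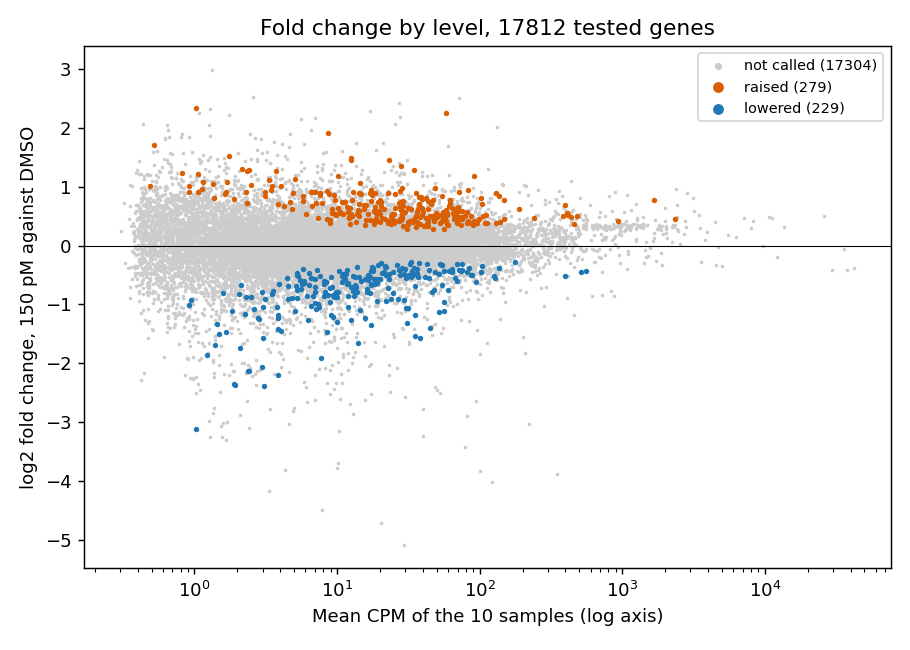
Log2 fold change of 150 pM against DMSO (vertical) for each tested gene against its mean CPM over the 10 samples (horizontal, log axis), with the 279 raised genes in orange, the 229 lowered genes in blue and the others in grey. Called changes lie mostly within 1 of zero, and most of the largest decreases were not called.

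The raised gene with the smallest p was Nfu_g_1_008211. Its level in DMSO replicates 1 to 5 was 51.5, 61.0, 57.9, 54.2 and 59.4 CPM, and in the 150 pM replicates 1 to 5 it was 120.4, 97.7, 118.2, 115.5 and 96.4 CPM. Every treated sample thus lay well above every DMSO sample, and the DMSO samples were close together. The means were 56.8 ± 3.88 CPM in DMSO skin and 109.6 ± 11.6 CPM at 150 pM (SD, n = 5), a 1.93-fold difference. On the log2 scale this was 0.95 ± 0.09 (standard error), with adjusted p = 0.00638 in edgeR's quasi-likelihood test and 1347 to 3087 counts per sample. In the 15 pM samples the gene had 153.2, 69.3, 73.3, 116.4 and 71.2 CPM, so that replicates 1 and 4 of that dose were above or within the range of the 150 pM samples and the others lay between the groups compared here. The call was lost when all 15 samples shared 1 fit, where the standard error was 0.20 and the adjusted p 0.0880.

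Nfu_g_1_023528 had the largest rise among called genes without overlap and with a mean of at least 1 CPM. DMSO replicates 1 to 5 had 5.96, 5.51, 7.29, 7.37 and 7.16 CPM, and the 150 pM replicates had 24.7, 14.4, 15.8, 21.9 and 16.1 CPM. All treated samples lay above all DMSO samples, and replicates 1 and 4 stood above the other treated samples. From means of 6.66 ± 0.856 and 18.6 ± 4.48 CPM (SD, n = 5) the gene rose 2.79-fold, or by 1.48 ± 0.17 (standard error) on the log2 scale, with adjusted p = 0.00903 in the same edgeR test. In the 15 pM samples it had 8.41, 8.24, 7.80, 5.05 and 15.6 CPM, so that replicate 5 alone reached the range of the 150 pM samples. In the fit of all 15 samples its log2 fold change was 1.47 at 150 pM (adjusted p = 0.0410) and 0.44 at 15 pM (adjusted p = 0.321), with the same DMSO samples in both.

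Among the lowered genes Nfu_g_1_020069 had the smallest p. Its level was 5.09, 8.35, 4.77, 6.24 and 5.19 CPM in DMSO replicates 1 to 5 and 2.14, 2.33, 2.26, 2.46 and 1.65 CPM in the 150 pM replicates. The treated samples were close together and all lay below the lowest DMSO sample. The means fell from 5.93 ± 1.46 to 2.17 ± 0.310 CPM (SD, n = 5), which is -1.45 ± 0.18 (standard error) on the log2 scale, with adjusted p = 0.0124 in edgeR's test. The counts behind these values were 121 to 203 per DMSO sample and 38 to 63 per 150 pM sample. The 15 pM samples had 2.85, 2.79, 2.45, 3.64 and 3.95 CPM, and all of them lay below the DMSO samples, 1 of them within the range of the 150 pM samples. In the fit of all samples, with DMSO shared, the log2 fold changes were -1.45 at 150 pM (adjusted p = 0.0140) and -0.92 at 15 pM (adjusted p = 0.0287).

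The largest fall among called genes without overlap was that of Nfu_g_1_017037, a gene with few counts. DMSO replicates 1 to 5 had 0.655, 4.44, 1.46, 0.926 and 1.77 CPM, from 18 to 108 counts, and the 150 pM replicates had 0.429, 0.259, 0.136, 0.119 and 0.0870 CPM, from 2 to 11 counts. DMSO replicate 2 was far above the other DMSO samples, and the gap between DMSO replicate 1 and 150 pM replicate 1 was small. The fitted change was -3.11 ± 0.61 (standard error) on the log2 scale, with adjusted p = 0.0349 in edgeR's test. The 15 pM samples had 0.0751, 0.314, 0.0907, 2.15 and 0.200 CPM, with replicate 4 within the DMSO range. Without any single sample other than DMSO replicate 1 or 150 pM replicate 1 the call was lost, with adjusted p of 0.0502 to 0.0815.

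**Figure D3:**
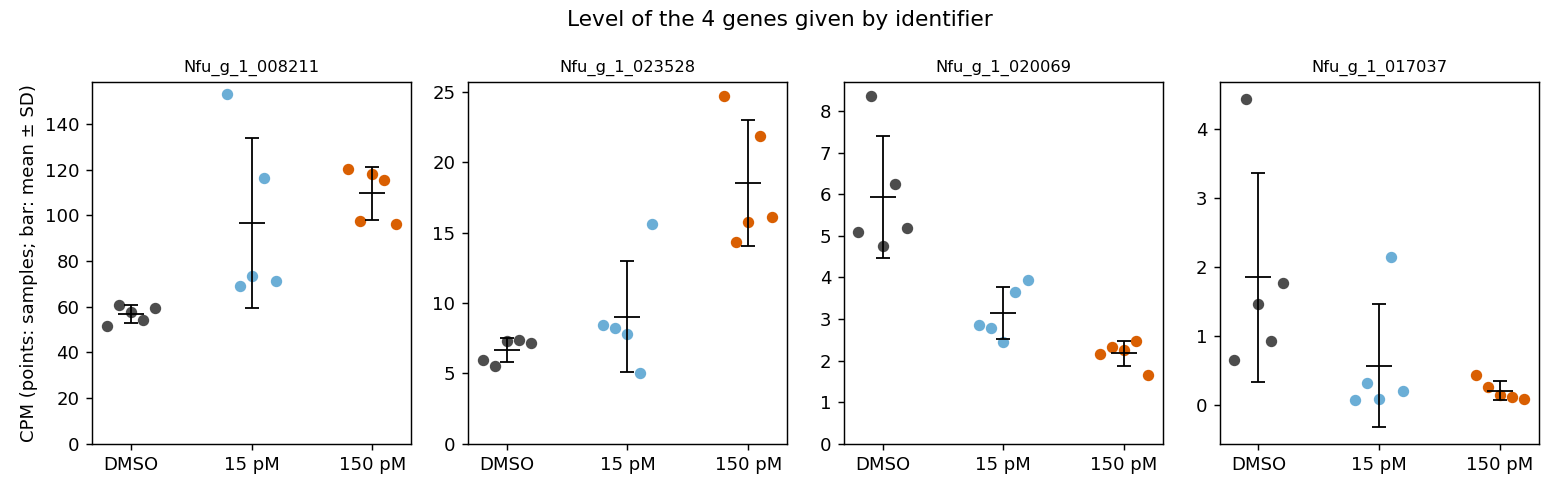
CPM of the 4 genes given by identifier in each sample of DMSO (grey), 15 pM (light blue) and 150 pM (orange), with black bars for the mean ± SD of 5 samples. The DMSO and 150 pM points do not overlap in any of the 4 genes, which was a condition of choice for Nfu_g_1_023528 and Nfu_g_1_017037. Nfu_g_1_008211 and Nfu_g_1_020069 were chosen by the smallest p between the same samples. In Nfu_g_1_008211 the 15 pM points lie above all DMSO points, from 69.3 to 153.2 CPM.

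Direction went with gene length. Lengths in bases, recovered from the deposited tables, had a median of 4191 in the raised genes, 2592 in the lowered genes and 2764 in all tested genes. The tested genes were divided by length into 4 classes of equal size. In the longest class, from 4779 bases upward, 119 genes were raised and 31 lowered, so that 79.3% of the calls were increases. In the shortest class, up to 1383 bases, 36 genes were raised and 61 lowered, or 37.1% increases. The classes between them had 54 raised and 62 lowered genes and, for the longer class, 70 raised and 75 lowered genes. Over all lengths 54.9% of the calls were increases.

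Among called genes the same contrast was seen at every level of counts. In 5 equal classes by mean CPM, from the lowest to the highest, the longest length class held 8, 6, 15, 33 and 57 raised against 0, 2, 8, 11 and 10 lowered genes. The shortest class held 4, 8, 10, 8 and 6 raised against 11, 14, 14, 13 and 9 lowered genes. Lowered genes were thus fewer in the former and more in the latter in all 5 CPM classes. These counts come from the comparison itself and carry no test of their own. In the longest class raised genes were the majority in the 21 alternative fits too, with 63.5% to 100% of the calls. The values of 100% rested on 6, 12 and 9 calls, in the fit of 15 samples and without DMSO replicate 2 or 4. In the shortest class the balance turned to 66.7%, 60.8%, 70% and 71.4% raised without DMSO replicate 2 and without 150 pM replicate 2, 3 and 5. These were 2 raised against 1 lowered, 48 against 31, 7 against 3 and 5 against 2 genes. In the same fits and order, 73.3%, 70.6%, 67.5% and 78.8% of the calls of all lengths were raised. The shortest class thus lay below the share of all calls except without 150 pM replicate 3. In that fit the longest class had 78.9% raised.

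Over all genes, called or not, the difference by length was small. The median log2 fold change was 0.07 in the longest class and -0.03 in the shortest. From the lowest to the highest CPM class it was 0.19, 0.04, 0.03, 0.05 and 0.10 in the longest class. In the shortest class it was 0.01, -0.07, -0.05, -0.03 and 0.07, so that short genes did not have a negative median at every level. Per sample, the median deviation of long genes minus that of short genes, in log2 CPM around the mean of the 10 samples, was 0.03, -0.06, -0.12, -0.08 and -0.02 in DMSO replicates 1 to 5 and 0.08, -0.01, 0.12, -0.03 and 0.09 in the 150 pM replicates. The highest samples were 150 pM replicates 1, 3 and 5, while 150 pM replicates 2 and 4 lay among the DMSO samples. The group means, -0.05 ± 0.06 and 0.05 ± 0.07 (SD, n = 5), did not differ past the threshold (exact two-sided permutation p = 0.0556), a test chosen after the values were seen. Without DMSO replicate 1, 150 pM replicate 2 or 150 pM replicate 4 the exact permutation test gave p = 0.0397, 0.0476 and 0.0317. Without any other single sample the exact two-sided permutation test gave p of 0.0635 to 0.103, which did not pass. RNA integrity values were not used here, and the part of RNA quality in the length pattern was not tested.

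**Figure D4:**
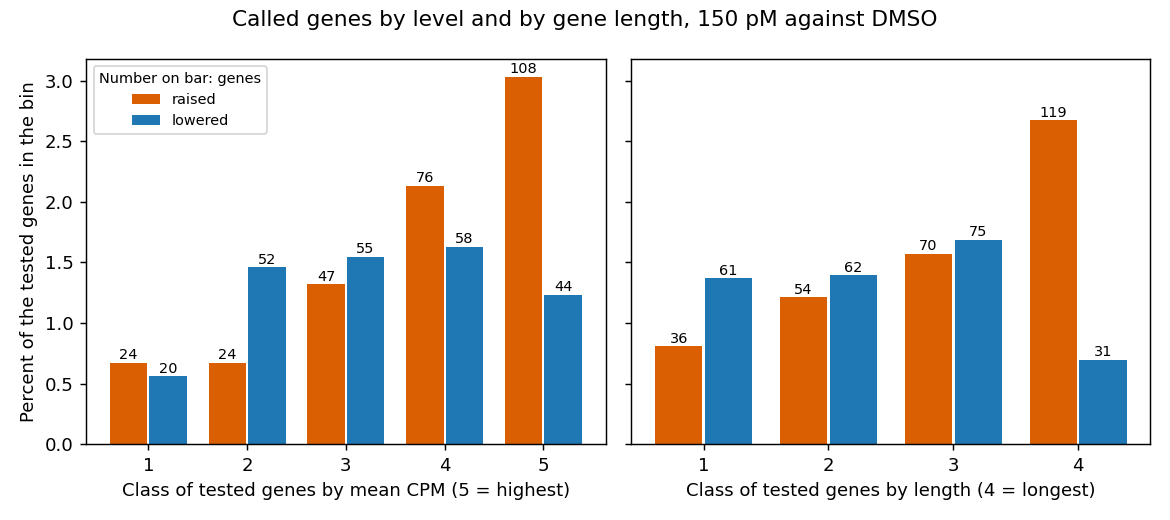
Percent of the tested genes called raised (orange) or lowered (blue) at 150 pM by class of mean CPM (left) and by class of gene length (right), with the number of genes above each bar. Raised genes outnumber lowered ones in the upper 2 classes by CPM, in the lowest CPM class (24 against 20) and in the longest class, where 119 were raised and 31 lowered.

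Calls were also more frequent among genes with more counts, where the fold change is known more precisely. From the lowest to the highest of the 5 CPM classes, 1.23%, 2.13%, 2.86%, 3.76% and 4.27% of the genes were called. The median standard error of the log2 fold change was 0.29 in the lowest and 0.12 in the highest class. From the lowest to the highest class 24, 24, 47, 76 and 108 genes were raised and 20, 52, 55, 58 and 44 lowered, so that raised genes were the majority in the lowest class and in the upper 2. CPM rises with gene length, however. In 5 classes by CPM per kilobase of gene length, from the lowest to the highest, 28, 45, 55, 87 and 64 genes were raised. The lowered genes in these classes were 20, 49, 51, 47 and 62. The median CPM per kilobase was 6.69 in raised, 5.52 in lowered and 4.46 in all tested genes.

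None of the 20 genes with the highest mean CPM was called, and among the first 100 genes 2 were raised and 0 lowered. Of all tested genes 2.85% were called, and of the highest CPM class 4.27%. Counts this small are not read as a trait of the top genes. Just below these top genes, most estimates pointed upward. Of 335 tested genes with a mean of 300 to 3000 CPM, bounds chosen after the values were seen, 260 (77.6%) had a higher estimate at 150 pM, against 50.3% of all tested genes, and their median log2 fold change was 0.27. In the 101 of them that belong to the shortest class by length, 93 (92.1%) had a higher estimate. Their fold changes were close together, with a median of 0.32 and quartiles of 0.26 and 0.35. Of the 101 genes 1 was raised and 0 were lowered, against 2.85% called of all tested genes. Their median adjusted p in edgeR's test was 0.131. In that test 67 of them had an unadjusted p under 0.05, against 25.4% of all tested genes. As the bounds followed the values, these counts carry no test of their own.

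These 335 genes together took 25.9%, 24.6%, 26.4%, 26.5% and 26.3% of the counts of all tested genes in DMSO replicates 1 to 5. In the 150 pM replicates they took 28.5%, 30.7%, 28.1%, 30.3% and 28.1%. In these shares each treated sample lay above each DMSO sample. TMM scaling cancels out of such shares, whereas the fold changes rest on it. Divided by the TMM factors, 1.07 for 150 pM replicate 1 and 0.975 for DMSO replicate 3, the former share falls below the latter. On that scale the groups thus overlapped for the 335 genes. For the 101 short genes the shares were 8.24%, 8.17%, 8.69%, 9.06% and 9.00% in DMSO and 9.75%, 11.8%, 9.55%, 11.1% and 9.30% at 150 pM, again without overlap. The 150 pM replicates 2 and 4 were the highest. Since the CPM bounds were chosen after the values were seen, this difference carries no test.

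The share of all tested counts that fell on the shortest class of genes was a property set with the design. It was 17.6%, 17.3%, 19.2%, 18.7% and 18.3% in DMSO replicates 1 to 5 and 19.6%, 20.02%, 19.1%, 21.7% and 18.8% at 150 pM. The groups overlapped, with DMSO replicate 3 above 150 pM replicates 3 and 5. The means were 18.2 ± 0.790% and 19.8 ± 1.12% (SD, n = 5), with an exact two-sided permutation p of 0.0238 and an adjusted p of 0.0952 over the 4 sample properties, which did not pass. Without DMSO replicate 1 or 2 the unadjusted p was 0.0556. The summed counts of short genes and the median fold change of short genes thus pointed in opposite directions.

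In the edgeR fit of the 10 samples, large estimated decreases rested mostly on DMSO replicate 5. Of the 17812 tested genes, 102 had a log2 fold change under -2 and 18 had one over 2, and 10 of these 120 genes were called. In 75 of the 120, 1 sample held over 50% of the summed CPM of the higher group, and in 64 of these 75 it was DMSO replicate 5. None of the 10 called genes was of this kind. Without DMSO replicate 5 the counts were 38 genes under -2 and 42 over 2. Without DMSO replicate 3 they were 146 and 138, so that the balance of large changes also depended on that library. Without any other single sample, decreases under -2 outnumbered increases over 2. The excess of decreases was also absent in limma-voom, with 31 under -2 and 30 over 2. It was turned around in limma-voom with weights per sample, with 24 and 58, and without the 3 libraries that stood apart, with 51 and 105. The strongest decrease of all, -5.08, was not called.

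No gene was switched on or off at a level that could be read. There was 1 gene with 0 counts in all DMSO samples and at least 1 count in every 150 pM sample, with a mean of 1 count, and 1 gene with the reverse pattern and a mean of 4 counts in DMSO. Neither entered the test.

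The called genes were chosen by the difference between these same samples, so the gap between the groups in their summed levels is given as a description only. The 279 raised genes together held 1.39% to 1.59% of the counts of all tested genes in DMSO samples and 1.93% to 2.14% at 150 pM. The 229 lowered genes held 0.775% to 0.896% and 0.447% to 0.620%. TMM scaling cancels out of these shares. In summed scaled CPM the raised genes had 13934 to 14614 in DMSO samples and 19720 to 22355 at 150 pM. The lowered genes had 7791 to 8633 and 4976 to 5826. Among the lowered genes 150 pM replicate 3 was the lowest of its group in 138 genes (60.3%) and 150 pM replicate 4 the highest in 97 (42.4%). In the DMSO group, replicates 2 and 4 were the highest in 63 and 64 of the lowered genes and replicate 1 in 10. Among the raised genes DMSO replicate 1 was the highest of its group in 104 (37.3%). The highest and lowest samples were not counted over all tested genes, so these numbers are not read as a trait of the called genes.

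The spread within the groups was compared gene by gene, without a test. The median SD of log2 CPM over the tested genes was 0.20 in DMSO and 0.23 at 150 pM, and 7275 genes (40.8%) had the larger SD in DMSO. For the lowered genes the medians were 0.16 and 0.19, and for the raised genes 0.15 and 0.16. The test that chose these genes favours a small spread, so their medians are not read against those of all tested genes.

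Few called genes lay next to a gene called the same way in the deposited table, whose order is not explained in the sources used here. Their shares were nevertheless above those of all tested genes, without a test. Among tested genes in table order, 16 raised genes (5.73%) had a raised gene as a direct neighbour, against 3.11% of all tested genes. A lowered neighbour was found for 11 lowered genes (4.803%), against 2.54% of all tested genes. The longest run was of 2 raised and of 3 lowered genes.

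The number of calls depended strongly on single libraries, in both groups. With DMSO replicate 1, 2, 3, 4 or 5 left out, 718, 45, 135, 32 and 227 genes were called. With 150 pM replicate 1, 2, 3, 4 or 5 left out, the numbers were 205, 432, 80, 545 and 52. The share of raised genes among the calls ran from 40% without 150 pM replicate 4 to 78.8% without 150 pM replicate 5. Without the 3 libraries that stood apart, DMSO replicates 3 and 5 and 150 pM replicate 2, an alternative added after the data were seen, 209 genes were called, 134 raised and 75 lowered, and 102 of them were among the 508. All 508 genes kept the sign of their fold change in these 11 fits, which share most of the samples that chose the genes.

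In each of the 10 fits with 1 sample left out, 28 genes were called, 24 of them raised and 4 lowered, with median log2 fold changes of 0.79 and -1.34. They include Nfu_g_1_008211, Nfu_g_1_023528 and Nfu_g_1_020069. This set could not exceed the calls of the fit without DMSO replicate 4, which were 32, 24 raised and 8 lowered. Its balance of directions is therefore not read as a trait of the stable genes. Of the 508 genes, 130 were called in at least 5 of the 10 fits, 70 of them raised and 60 lowered. In none of these fits were 25 of the 508 called. A set of 12 genes, 8 raised and 4 lowered, was called in all 21 alternatives, among them Nfu_g_1_023528 and Nfu_g_1_020069.

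**Figure D5:**
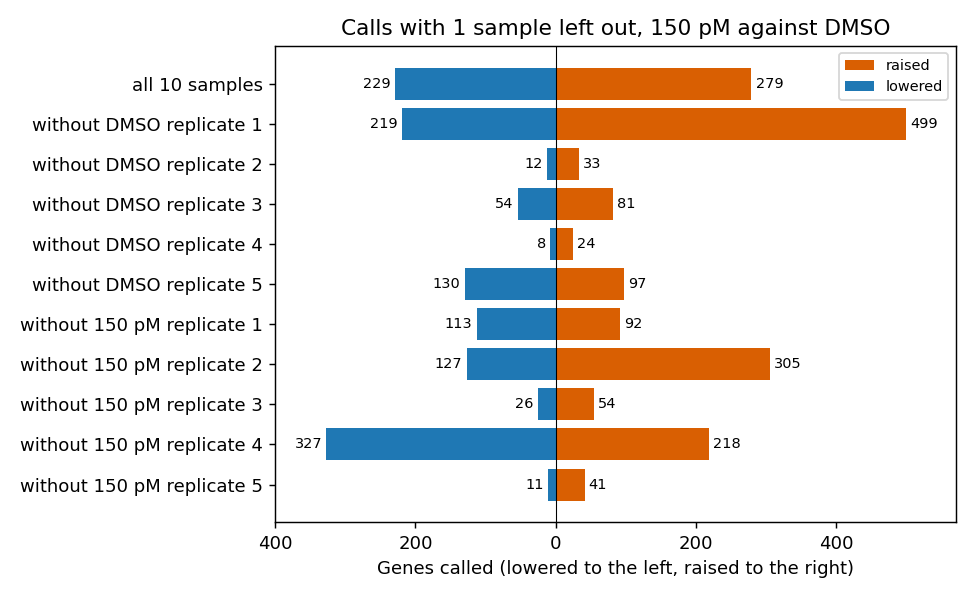
Number of genes called raised (orange, to the right) and lowered (blue, to the left) at 150 pM against DMSO with all 10 samples and with each sample left out in turn. The total runs from 32 genes without DMSO replicate 4 to 718 without DMSO replicate 1, and the balance of directions changes with the sample left out.

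Fitting the 15 pM samples together with these 10 left 23 calls, 13 raised and 10 lowered, and all 23 were among the 508. The fold changes hardly moved, while the median standard error rose from 0.16 to 0.22 over all tested genes and from 0.12 to 0.19 over the 508. The common biological coefficient of variation was 0.335 in the fit of 10 and 0.373 in the fit of 15 samples. For the same genes the fit of all samples gave a median log2 fold change of 0.57 at 150 pM and 0.38 at 15 pM for those raised at 150 pM, and of -0.66 and -0.31 for those lowered. Both doses were measured against the same 5 DMSO samples and the genes were chosen by the 150 pM values, so these medians are given side by side without a reading.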

How the data were processed

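RNA-seq of total RNA from skin used Illumina's TruSeq kit, version 2, per the labels' protocols. The kit does not mark strand, so antisense partners cannot be told apart. The submitters' processing notes list CASAVA 1.8.2, STAR 2.4.1d and featureCounts 1.4.6-p4. Genome build, annotation and the handling of reads shared by gene copies are not stated there, so counts of near-identical copies are uncertain. The authors deposited raw read counts and RPKM values for 26739 genes. In the deposited RPKM the 15 library totals run down the rows of the table: for 3936 well-covered genes the implied gene length agreed between samples within 1% for 0% of genes with own totals and for 100% with totals run down the rows. RPKM served only to recover gene lengths.

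Counts of the 10 samples were filtered with filterByExpr (minimum count 10, minimum total 15), scaled by TMM and tested in R 4.3.3 with edgeR 4.0.16 (glmQLFit, glmQLFTest), 1 mean per group, no covariates. Standard errors are the log2 fold change divided by the square root of F. Genes with an adjusted p under 0.05 were called. The 15 pM samples were scaled against the same reference library. Exact permutation tests of all 10 samples used all 252 arrangements, with a smallest p of 0.00794. With 1 sample left out they used all 126 arrangements. Alternatives, with DESeq2 1.42.0 and limma 3.58.1 among them, are given in the closing section.

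Identifiers were printed by rule: in each direction the called gene with the smallest p and the one with the largest fold change among those without overlap and with at least 1 CPM on average. Groups, members, lists and rules were chosen with earlier results of these data known. Gene lists and markers needed names and were not used. No 2 libraries agreed within sampling noise.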

Additional observations from a re-analysis of the deposited data

Results flagged for a closer look

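In 4 of the 24 groups of 5 values examined, 1 sample lay far from the rest of its group. Chance raises this flag in about 1 of 20 groups of independent values. That rate does not hold for component scores and for genes picked by their values, both drawn from these same samples. The 4 flags are therefore not read as an excess over chance. The 150 pM replicate 2 had 28314659 counts, against 23983152 to 24878602 in the other 150 pM samples. In DMSO replicate 5, 21505 genes had at least 1 count, against 20966 to 21085 in the other DMSO samples. DMSO replicate 3 had a PC1 score of 68.77, against -28.86 to -1.339 in its group. DMSO replicate 5 had a PC2 score of 73.42, against -9.039 to 6.444.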

How the results depend on the processing

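No paired analysis was possible because the numbers in the titles of the DMSO and the 150 pM samples do not overlap. The count of 508 called genes (279 raised, 229 lowered) stayed within 1.5 times with DESeq2 size factors, upper-quartile factors, a filter at 1 CPM in 5 samples, limma-voom without weights, a robust prior, and without the 20 most abundant genes. It was 211 (127 and 84) without a filter on low counts, 23 (13 and 10) with all 15 samples in the fit, 2299 (1111 and 1188) by the DESeq2 Wald test, where 1017 genes had no adjusted p, 1706 (917 and 789) by limma-voom with weights per sample, and 209 (134 and 75) without the 3 libraries farthest from their group. With 1 sample left out it ran from 32 to 718, from 24 to 499 raised and from 8 to 327 lowered. The cause was not tested.

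With 1 sample left out, the difference between groups (150 pM minus DMSO) ran from -80.7 to 91.1 in genes detected, from 1.15 to 1.86 percentage points in the share of short genes, and from 0.079 to 0.117 in the level of long against short genes. It turned from -6.8 to 91.1, 45.6 and 33.1 genes without DMSO replicate 5 and 150 pM replicates 3 and 5. The differences in total count and in the share of the 20 most abundant genes kept their sign, and none passed p under 0.05. The percent raised among called genes of the shortest length class ran from 17.1% to 71.4%, and without the 3 libraries it was 50%. In the longest length class the lowest value was 63.5%. Over all lengths the percent raised among the calls ran from 40% to 78.8% with 1 sample left out.

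None of the 4 genes given by identifier reversed. The adjusted p over the alternatives was 2.85e-18 to 0.0880 for Nfu_g_1_008211, 2.38e-12 to 0.0410 for Nfu_g_1_023528, 3.39e-09 to 0.0447 for Nfu_g_1_020069 and 5.05e-05 to 0.136 for Nfu_g_1_017037, whose call was lost in 10 of 20 alternatives and which the 1 CPM filter removed. Fold changes of genes with few counts were less precise: the median standard error on the log2 scale was 0.29 in the lowest CPM class and 0.12 in the highest. The part of sequencing depth in this was not tested.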
